A study of Mus musculus with 17 samples.

Results

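The splicing factor and hnRNP genes are the protein-coding mouse genes whose symbols begin with Srsf and a digit, Snrp, Hnrnp, Sf3a or Sf3b, U2af or Prpf. They number 69 of the 21887 protein-coding genes on chromosomes 1 to 19, X and Y: 21 Hnrnp, 13 Prpf, 12 Snrp, 11 Srsf, 9 Sf3 and 3 U2af genes. They were chosen by symbol alone, so Hnrnpa1l2-ps2 is included, which the gene table types as protein-coding although its name is that of a pseudogene. Each member's gene ends were examined in CUT&RUN peak lists of peeled mouse urothelium, the lining of the bladder, from Stag2-KO animals (here KO) and Stag2-WT animals (here WT), all taken 1 week after TMX induction. Both genotypes received TMX. The driver of the recombination, and whether replicates were single or pooled animals, are not given in the sources used here, and a peak list does not show how completely Stag2 was lost. CUT&RUN uses an antibody to bring a nuclease to the chromatin protein it binds, and the short fragments cut free are sequenced. The antibodies were against STAG2, a cohesin subunit, LIN54, which binds DNA for the MuvB core of the DREAM complex, and p130, the pocket protein of DREAM. There were 2 KO and 2 WT libraries for STAG2, 2 KO and 3 WT for LIN54, and 3 KO and 3 WT for p130, all labelled biological replicates.

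Introns are removed from RNA by the spliceosome, which is assembled from small nuclear ribonucleoproteins (snRNPs) and step-specific proteins. Sm proteins, encoded by Snrp genes, form the ring of most snRNPs. The SF3A and SF3B complexes hold the U2 snRNP on the branch site, and U2AF recognises the end of the intron. PRPF proteins act in the U4/U6.U5 tri-snRNP and in later rearrangements. SR proteins (Srsf) mostly promote the use of nearby splice sites, while hnRNPs coat nascent RNA and often oppose it. Most of these genes are expressed in nearly every cell type, and SF3B1, SRSF2 and U2AF1 are recurrently mutated in human blood cancers. DREAM represses cell cycle genes in resting cells through promoter elements called CHR, which LIN54 binds, and E2F sites, which E2F4 binds beside p130.

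A gene end was called marked when the summit of a peak lay within 500 bp of either end of the gene. The deposited lists hold weak peaks, with p up to 0.05, and 286079 to 539191 peaks per library were kept. Only 316 to 25859 of them reached a q of 0.01 (−log10 q of at least 2), so each count is given with all deposited peaks and again with those of q 0.01. As a guide to depth, the lowest background coverage among the checked summits of a library ranged over 1.28 to 2.03 fragments per base. Background at single ends could be higher, such as 6.76 at Hnrnpa2b1 in STAG2-WT replicate 1. A gene end without a peak is one at which none was detectable at the depth of its library. The fold enrichment of a peak is the authors' ratio of fragments at the summit to the background of the same library. It was used to describe and rank ends within a library and was not tested between libraries.

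Nearly all members were marked somewhere. With the deposited lists, 68 of 69 had a peak in at least 1 of the 15 libraries, against 93.4% of all protein-coding genes, and 7 (10.1%) had one in all 15, against 1.92% of all genes. The median member was marked in 11 libraries and the median gene in 6. At q 0.01, 56 members (81.2%) were marked in at least 1 library, against 41.3% of all genes, and the medians were 3 libraries for members and 0 for all genes. Members and the other genes share every library, so these shares are given as a description and were not tested.

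The marks lay at the 5′ ends. For the 60 members with a start in the RefSeq promoter table, which gives the strand, 203 of 204 peaks at q 0.01 lay at the 5′ end. Of their 616 deposited peaks, 514 (83.4%) did so, and for p130 the share was 73.3%. Relative to the listed transcription start, the median summit at q 0.01 lay 121 bp upstream with the STAG2 antibody (80 peaks), 152 bp upstream with LIN54 (139 peaks) and 160.5 bp upstream with p130. The p130 value comes from 34 peaks of only 9 members, 30 of them upstream.

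**Figure D1:**
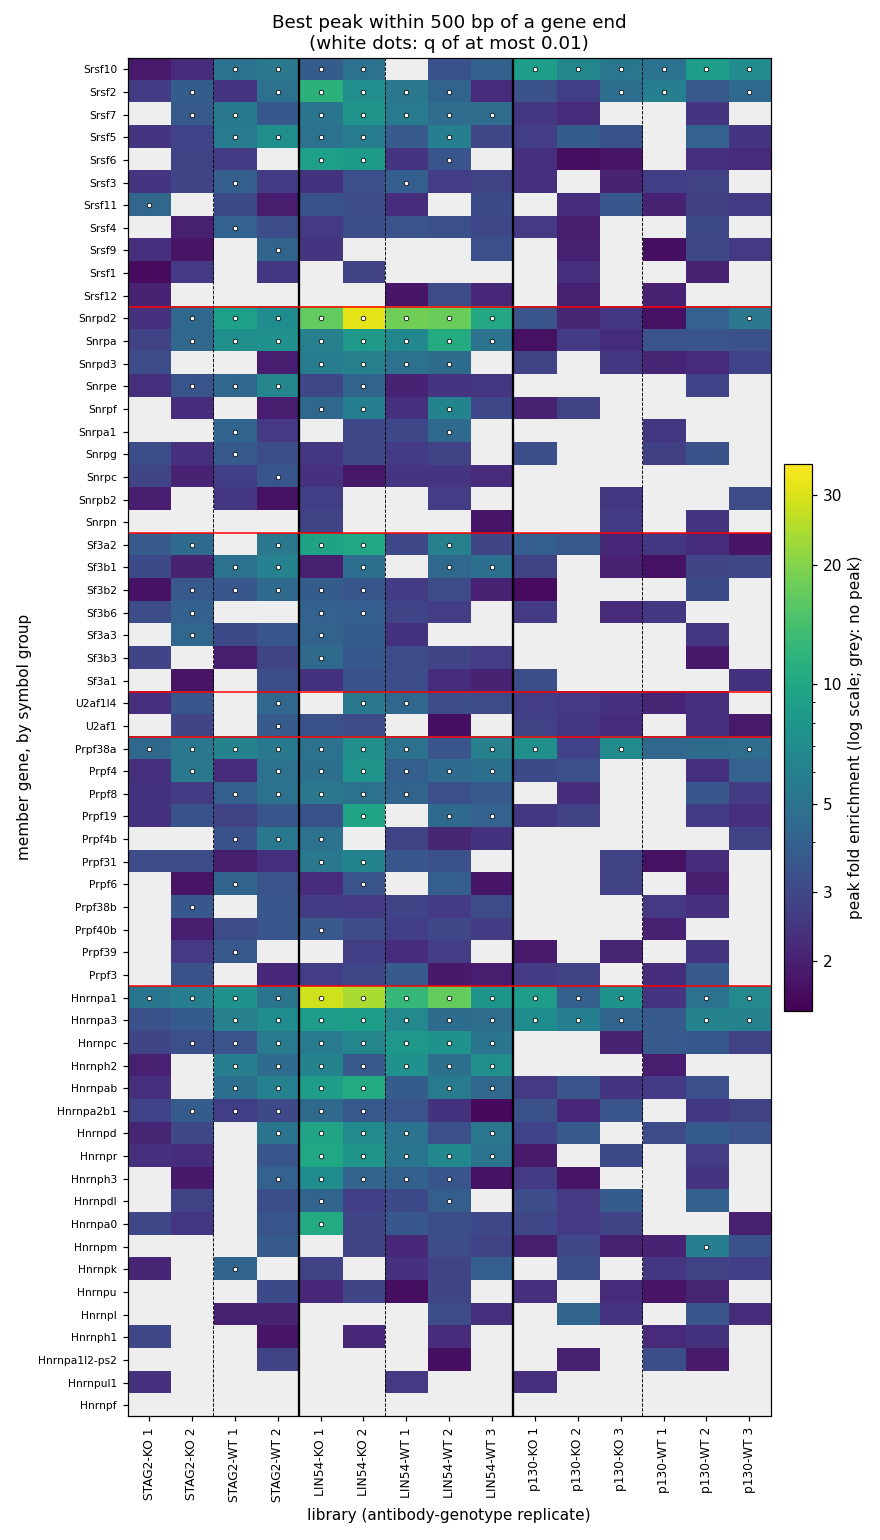
Fold enrichment of the best peak (lowest p) within 500 bp of either end of each of the 60 members with a listed start (rows, by symbol group and then by number of libraries at q 0.01) in the 15 libraries (columns, KO left of WT within each antibody). The colour scale is logarithmic, grey is no peak and white dots mark q of at most 0.01; Hnrnpa1 carries a dot in 14 of the 15 libraries and Hnrnpf has no peak in any.

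The promoters of the 7 members whose listed transcription start had a peak at q 0.01 in at least 9 libraries are shown here, because they are the listed starts marked in the most libraries. Hnrnpul2 has no listed start and is not among them. They are from RefSeq, build GRCm38.p6 (the assembly of mm10), run 5′ to 3′ on the strand of the gene from 250 bases before the listed start to 50 bases from it, and have the start at base 251. Capitals mark matches on either strand to a CHR (TTTGAA or TTCGAA) or to E2F letters (TTTCCCGC, TTTGGCGC, TTTCGCGC, TTCCCGCC or TTGGCGCC), which overlap where they share bases.
Hnrnpul1: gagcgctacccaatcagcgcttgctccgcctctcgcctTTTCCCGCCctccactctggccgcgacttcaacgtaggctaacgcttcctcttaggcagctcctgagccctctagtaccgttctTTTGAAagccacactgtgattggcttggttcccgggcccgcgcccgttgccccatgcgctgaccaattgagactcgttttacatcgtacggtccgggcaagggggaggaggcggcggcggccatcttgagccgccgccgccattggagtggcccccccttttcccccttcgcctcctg
Hnrnpa1: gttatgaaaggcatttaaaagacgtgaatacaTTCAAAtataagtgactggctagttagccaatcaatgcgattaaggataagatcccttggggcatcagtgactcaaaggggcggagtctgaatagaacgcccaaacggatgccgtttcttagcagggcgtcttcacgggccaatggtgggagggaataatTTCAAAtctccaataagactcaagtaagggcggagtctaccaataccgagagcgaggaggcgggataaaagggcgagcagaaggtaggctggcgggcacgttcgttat
Hnrnpa3: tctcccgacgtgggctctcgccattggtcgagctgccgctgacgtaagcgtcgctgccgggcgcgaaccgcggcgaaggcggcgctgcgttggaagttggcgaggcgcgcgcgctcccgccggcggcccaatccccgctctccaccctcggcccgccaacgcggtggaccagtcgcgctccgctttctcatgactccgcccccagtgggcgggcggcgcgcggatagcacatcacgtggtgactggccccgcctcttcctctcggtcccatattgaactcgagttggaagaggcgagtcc
Hnrnpl: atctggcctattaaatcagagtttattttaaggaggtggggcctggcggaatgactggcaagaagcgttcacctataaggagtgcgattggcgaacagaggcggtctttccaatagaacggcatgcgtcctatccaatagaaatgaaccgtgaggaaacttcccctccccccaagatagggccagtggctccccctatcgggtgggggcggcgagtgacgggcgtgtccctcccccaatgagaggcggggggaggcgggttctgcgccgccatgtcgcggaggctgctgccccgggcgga
Prpf38a: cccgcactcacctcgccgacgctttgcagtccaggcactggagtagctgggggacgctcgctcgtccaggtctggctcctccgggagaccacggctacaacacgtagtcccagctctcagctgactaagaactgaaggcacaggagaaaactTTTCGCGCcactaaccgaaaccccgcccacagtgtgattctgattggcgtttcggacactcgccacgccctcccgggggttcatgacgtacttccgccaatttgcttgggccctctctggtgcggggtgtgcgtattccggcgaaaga
Snrpd2: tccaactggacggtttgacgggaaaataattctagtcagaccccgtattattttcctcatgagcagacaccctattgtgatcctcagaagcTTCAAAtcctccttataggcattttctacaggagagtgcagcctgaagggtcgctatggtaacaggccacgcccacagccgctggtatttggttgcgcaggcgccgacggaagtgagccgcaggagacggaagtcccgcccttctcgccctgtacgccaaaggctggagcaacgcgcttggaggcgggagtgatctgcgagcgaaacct
Srsf10: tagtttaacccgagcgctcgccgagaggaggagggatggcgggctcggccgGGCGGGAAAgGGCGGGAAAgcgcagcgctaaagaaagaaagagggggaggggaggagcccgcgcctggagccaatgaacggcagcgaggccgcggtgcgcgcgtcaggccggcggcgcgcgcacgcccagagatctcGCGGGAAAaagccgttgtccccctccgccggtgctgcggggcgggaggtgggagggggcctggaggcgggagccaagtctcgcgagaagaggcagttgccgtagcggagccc
Hnrnpul1 (chr7:25754710-25755009, minus strand), encoding an hnRNP U-like protein, had E2F letters at bases 39 to 47 and a CHR at bases 123 to 128. Its 14 summits at q 0.01 lay 231 to 381 bp upstream of the listed start, so most were beyond the first printed base. Hnrnpa1 (chr15:103240147-103240446, plus strand) had a CHR at bases 33 to 38 and another at bases 193 to 198, Snrpd2 (chr7:19149588-19149887, plus strand) had 1 at bases 92 to 97, and neither had E2F letters. Prpf38a (chr4:108579287-108579586, minus strand) had E2F letters at bases 153 to 160. Srsf10 (chr4:135855821-135856120, plus strand) had E2F letters at bases 52 to 60, 62 to 70 and 189 to 196, and its 9 summits at q 0.01 lay 83 to 171 bp upstream of the start. Hnrnpa3 (chr2:75659009-75659308, plus strand) and Hnrnpl (chr7:28810640-28810939, plus strand) held neither kind of letters in this window.

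The 81 listed start windows of members belong to 60 genes, and some windows of a gene overlap. CHR letters stood in 17.3% of them, against 17.6% of 21263 windows of all genes. E2F letters stood in 21% of member windows against 5.21% of all windows. Letters of other factors that sit at the promoters of widely expressed genes were also searched on both strands. ETS letters (CCGGAAG) stood in 30.9% against 11.6%, the NRF1 motif in 19.8% against 5.77%, and the CCAAT box in 48.1% against 38.2%. CRE (TGACGTCA, 2.47% against 2.23%) and YY1 letters (AAGATGGCG, 2.47% against 1.83%) were near the share of all windows. Member windows were also richer in CpG, with a median observed-to-expected ratio of 0.92 against 0.567, and in G and C, with a median of 60% against 56.3%. The part of base composition in the motif shares was not tested. Among the member windows, the 29 with a peak at q 0.01 in 5 or more libraries had E2F letters in 27.6% and a CHR in 17.2%. Over all genes, the 2574 windows with such peaks had them in 11.3% and 13%. The 14 member windows without such a peak in any library had E2F letters in 0% and a CHR in 28.6%, and 3 of the 4 windows behind that CHR share are of Snrpn. Their median CpG ratio was 0.479, against 0.967 in the 29 windows, and their median share of G and C was 51.5%, against 60%.

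Around the 81 listed starts, peaks were most frequent at the start itself. Depending on the library, a deposited summit lay within the 1 kb bin at the start for 40.7% to 85.2% of member starts, against 22.8% to 47.4% of all starts. In the bin 5 kb upstream the shares were 8.64% to 21% for members and 13.1% to 22.4% for all starts. At q 0.01, 3.7% to 54.3% of member starts had a summit at the start, against 1.03% to 30.1% of all starts, and 0% to 3.7% of member starts had one 5 kb upstream. The share of member starts was above that of all starts at the start itself in 15 of 15 libraries under both limits, and in the bin 5 kb upstream in 8 of 15 with the deposited lists and 3 of 15 at q 0.01. On the downstream side the shares with the deposited lists 5 kb away were 13.6% to 30.9% for members and 13.6% to 22.6% for all starts, and members were above all starts in 12 of 15 libraries. At q 0.01 they were above in 3 of 15 there.

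**Figure D2:**
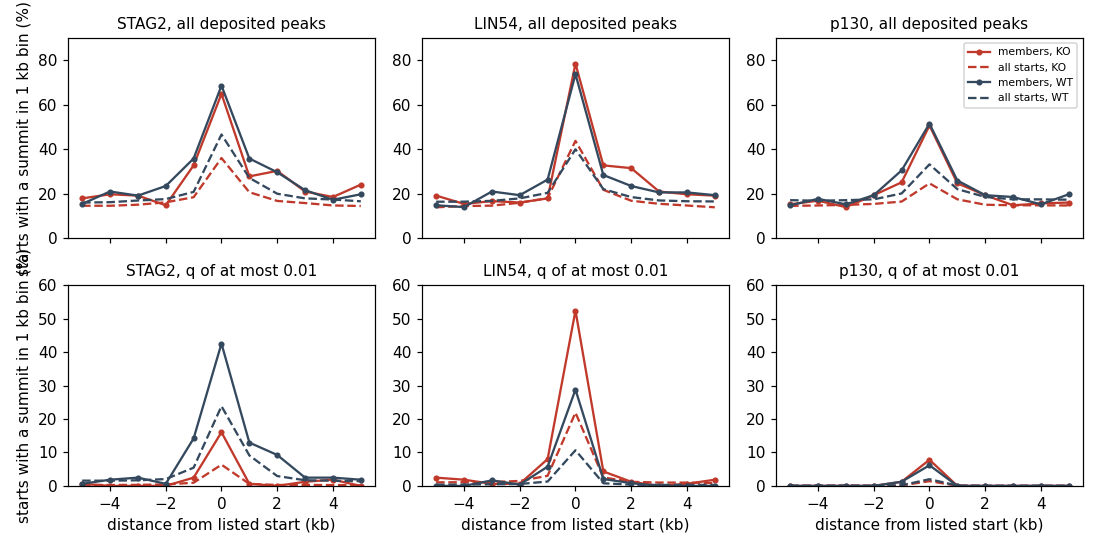
Mean percent over the libraries of a group of listed starts with a peak summit in each 1 kb bin, by distance from the start (negative is upstream), for the 81 member starts (solid) and all starts (dashed), with KO in red and WT in blue. The upper row shows all deposited peaks and the lower row those of q 0.01; in the LIN54 panel at q 0.01 the member curve of KO peaks at 52.5% and that of WT at 28.8%.

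Loss of Stag2 was compared first at the STAG2 antibody, whose target gene is the one deleted in KO, per the labels. With the deposited lists, 44 and 51 members were marked in the 2 STAG2-KO libraries and 41 and 59 in the 2 STAG2-WT libraries. These member counts overlapped. The shares of all genes were 38.7% and 46.2% in KO and 50.7% and 53.0% in WT, without overlap. At q 0.01 the counts were 4 and 20 in STAG2-KO and 28 and 30 in STAG2-WT, so both KO libraries were below both WT libraries. As a mean, 17.4% ± 16.4 of members were marked at q 0.01 in STAG2-KO and 42.0% ± 2.05 in STAG2-WT (SD, n = 2 each), a difference of −24.6 percentage points, beside −17.2 points for all genes. These KO lists were shorter at q 0.01, with 1239 and 6777 peaks against 25859 and 13346 in WT. With the 20000 best peaks of each library, which sets list length equal, 18 and 27 members were marked in KO and 26 and 39 in WT, and the groups overlapped. The separation of the STAG2 libraries by member count at q 0.01 was thus not seen at equal list length. The shares of all genes with these peaks were 9.21% and 16.6% in KO and 26.1% and 20.6% in WT, without overlap. The share of all peaks on the X chromosome was 0.436% and 0.259% in STAG2-KO and 1.00% and 2.42% in STAG2-WT, and its part in the counts was not tested.

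Members marked in every library of a group give the same view. In both STAG2-KO libraries 34 members were marked (background over all genes, 25.5%), and in both STAG2-WT libraries 37 (background 35%). At q 0.01 there were 3 in STAG2-KO (background 1.9%) and 20 in STAG2-WT (background 12.6%). The 3 were Hnrnpa1, Hnrnpul2 and Prpf38a. Leaving out STAG2-KO replicate 1 raised the KO count at q 0.01 to 20 and leaving out replicate 2 gave 4, so 1 library sets it.

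At q 0.01, 10 members were marked in both STAG2-WT and neither STAG2-KO library, 14.5% of the members against a background of 6.19%, and none in the opposite pattern (background 0.032%). They act at different steps of splicing: the branch-site subunits Sf3b1 and Sf3b5, the tri-snRNP core protein Prpf8, the kinase Prpf4b and the exon-ligation factor Prpf18, the SR proteins Srsf5 and Srsf10, and Hnrnpa3, Hnrnpab and Hnrnph2. At Sf3b5 the STAG2 fold was 1.98 in 1 KO library, with no peak in the other, against 6.04 and 7.87 in WT. At Sf3b1 it was 3.04 and 2.05 in KO and 4.88 and 6.15 in WT. In 9 of these 10 members a deposited peak was still present in at least 1 KO library. Prpf4b had none in either KO library, against folds of 3.33 and 5.35 in WT. Hnrnph2 is the only member on the X chromosome, whose share of all peaks was lower in both STAG2-KO than in both STAG2-WT libraries. The part of that share in the Hnrnph2 pattern was not tested.

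With the deposited lists fewer members were marked in one genotype alone. At their gene ends Hnrnpl, Prpf4b and Snrpa1, the U2 snRNP A′ protein, were marked in both STAG2-WT and no STAG2-KO library. These are 3 of 69 members, a share below the background of 6.44%. The Hnrnpl peaks in WT lay at the 3′ end, at folds of 1.98 and 2.04. At its listed start Hnrnpl was marked in both STAG2-KO libraries, at folds of 6.25 and 7.33. Prpf4b had a peak of fold 2.21 at its listed start in STAG2-KO replicate 1. Sf3b6, the SF3B subunit that contacts the branch-point adenosine, was marked in both STAG2-KO and no STAG2-WT library (1 of 69 members, background 2.03%). Its folds were 3.20 and 4.05.

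LIN54 marked more of the family than the other antibodies did in KO, and also more of all genes. The mean KO shares of all genes were 48.5% (LIN54), 42.5% (STAG2) and 34.5% (p130) with the deposited lists. At q 0.01 they were 20.8%, 6.15% and 1.43%. The 2 LIN54-KO libraries marked 57 and 59 members and the 3 LIN54-WT libraries 55, 60 and 52, so the groups overlapped with the deposited lists. The shares of all genes, 47.5% and 49.6% in KO and 47.2%, 49.4% and 45.3% in WT, overlapped too. At q 0.01 the counts were 37 and 34 in LIN54-KO and 20, 23 and 16 in LIN54-WT, without overlap. The means were 51.4% ± 3.07 of members in KO (SD, n = 2) and 28.5% ± 5.09 in WT (SD, n = 3), a difference of 22.9 points, beside 10.7 points for all genes. With the 20000 best peaks, 37 and 39 members were marked in LIN54-KO and 28, 28 and 26 in LIN54-WT, still without overlap. The shares of all genes with these peaks were 22.8% and 23.1% in KO and 16.4%, 19.1% and 13.9% in WT. They did not overlap either.

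Other features of the LIN54 lists moved with genotype. The number of peaks at q 0.01 was 15787 and 13044 in KO and 4903, 6617 and 2166 in WT. The share of all peaks on the X chromosome was 0.486% and 0.744% in KO and 5.09%, 4.17% and 3.16% in WT. Their part in the member counts was not tested.

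**Figure D3:**
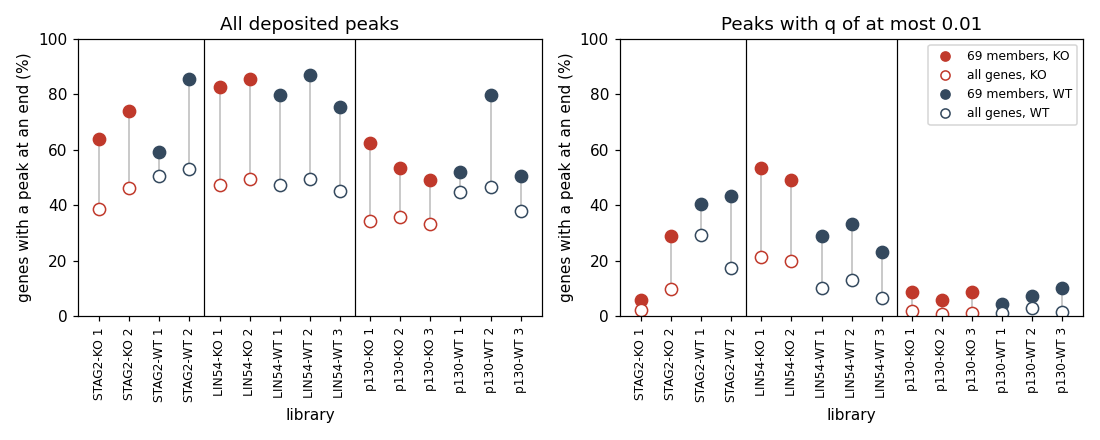
Percent of the 69 members (filled) and of all 21887 protein-coding genes (open) with a peak at a gene end in each library, KO in red and WT in blue, for all deposited peaks (left) and q of at most 0.01 (right). At q 0.01 the LIN54-KO libraries lie above the LIN54-WT libraries, the STAG2-KO libraries lie below the STAG2-WT libraries, and the p130 libraries overlap.

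In every LIN54-KO library 52 members were marked (background 35.5%), against 42 in every LIN54-WT library (background 23.8%). Every library means 2 libraries in KO and 3 in WT, which is a stricter limit for WT. With 1 WT library left out, the WT count ranged over 44 to 51. At q 0.01 the numbers were 29 in KO (background 15.8%) and 11 in WT (background 4.71%), or 13 to 14 with 1 WT library left out. By role, the KO count comprised 11 of 21 Hnrnp, 5 of 13 Prpf, 5 of 11 Srsf, 4 of 12 Snrp, 4 of 9 Sf3 and 0 of 3 U2af genes. The WT count comprised 6 Hnrnp, 2 Prpf, 2 Snrp, 1 Srsf, 0 Sf3 and 0 U2af genes. With the deposited lists all 9 Sf3 genes were marked in both KO libraries and 6 in all 3 WT libraries.

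Members marked at q 0.01 in both LIN54-KO and no LIN54-WT library numbered 7, or 10.1% against a background of 3.99%, and none had the opposite pattern (background 0.0183%). They were Sf3b2, Sf3b5 and Sf3b6 of the SF3B complex, Srsf10, the tri-snRNP assembly factor Prpf31, Hnrnpa2b1, which binds and transports RNA, and Hnrnpll, known from exon choice in T cells. Prpf31 had folds of 5.38 and 6.29 in KO and 3.53 and 3.28 in 2 of 3 WT libraries. The 3.28 (WT replicate 2) was at the 3′ end. At the 5′ end, which is the listed start, that library had a fold of 2.55. Hnrnpll had 5.98 and 5.27 in KO and 3.38, 2.51 and 2.99 in WT. Weak deposited peaks at WT ends thus lay below the q limit at both genes. With the deposited lists only Srsf12, an SR protein of restricted expression, was marked in all 3 WT and no KO libraries. Its folds were 1.82 to 3.15. It is 1 of 69 members, a share near the background of 1.38%, and none had the opposite pattern (background 2.04%). At its listed start Srsf12 was marked in 1 of the 3 LIN54-WT libraries and in no LIN54-KO library. At their gene ends, Srsf10 and Sf3b5 stood both among the 7 members above and among the 10 marked by STAG2 in WT alone.

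p130 marked few members strongly, and a smaller share of all genes. The p130-KO libraries marked 43, 37 and 34 members and the p130-WT libraries 36, 55 and 35, with overlap. The shares of all genes with the deposited lists did not overlap, and every KO library was below every WT library. Their means were 34.5% ± 1.18 in KO and 43.2% ± 4.56 in WT (SD, n = 3 each). At q 0.01 the p130 libraries marked 6, 4 and 6 members in KO and 3, 5 and 7 in WT. The means at q 0.01 were 7.73% ± 1.67 in KO and 7.25% ± 2.90 in WT (SD, n = 3 each), and the difference of 0.483 points was smaller than either SD. Over all genes the means were 1.43% in KO and 2.00% in WT, a difference of −0.568 points. In every library of a group 19 members were marked in KO (background 8.88%) and 19 in WT (background 14.3%). p130-WT replicate 1 is of batch 2 and the other p130 libraries are of batch 3. All STAG2 and LIN54 libraries are of batch 1, so p130 differs from them in batch as well as antibody. Within batch 3 the WT count was 30, over replicates 2 and 3 only and so under a looser limit. In p130-WT replicate 1, 5.98% of all peaks lay on the X chromosome, against 0.310% to 0.330% in p130-KO and 0.440% and 0.465% in the other p130-WT libraries. The part of that difference in the counts was not tested.

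At q 0.01 Hnrnpa1, Hnrnpa3, Hnrnpul2 and Srsf10 were marked in all 3 p130-KO libraries (background 0.681%), and Hnrnpul2 and Srsf10 in all 3 p130-WT libraries (background 0.758%). No member was marked by p130 at q 0.01 in all libraries of one genotype alone (background 0.00457% for KO alone and 0.0228% for WT alone). Hnrnpll alone was so marked with the deposited lists, in WT (1 of 69 members, background 2.42%). None was so marked in KO (background 0.854%).

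For single genes a test between genotypes has little reach here. By two-sided Fisher's exact test on libraries with and without a peak, the smallest p that 2 against 2 libraries allow is 0.333, and 2 against 3 or 3 against 3 allow 0.1. No gene of 21887 could therefore pass, and the smallest Benjamini-Hochberg adjusted p was 1 for each antibody. The differences above, and the orders of fold by genotype given below, are descriptions of these libraries. The share of all gene ends with the same order of folds is not given here.

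At q 0.01 the members marked in the most libraries were hnRNP genes. The 7 members with a deposited peak in all 15 libraries were Hnrnpa1, Hnrnpa3, Hnrnpul2, Prpf38a, Snrpa, Snrpd2 and Srsf2. Hnrnpul2, encoding an hnRNP U-like protein, was the only member with a peak at q 0.01 in all 15 libraries (background 0.142%). Its LIN54 fold was 28.3 and 35.9 in the KO libraries and 12.2, 12.6 and 6.50 in the WT libraries, and both KO values were above all WT values. Its p130 fold was 10.3, 6.59 and 9.32 in KO and 5.26, 6.22 and 10.9 in WT. Its STAG2 fold was 6.36 and 5.02 in KO and 8.36 and 7.22 in WT. Ttc9c ends 48 bp from Hnrnpul2, and the peaks cannot be assigned to either gene.

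Hnrnpa1, which encodes the shuttling hnRNP A1 that silences exons, had a peak at q 0.01 in 14 libraries. Its LIN54 fold was 28.5 and 24.0 in KO and 12.5, 17.0 and 8.01 in WT, again without overlap. Its p130 fold was 8.69, 3.95 and 7.54 in KO and 2.43, 4.90 and 6.71 in WT, where replicate 1 of WT (q = 0.489) was the exception at q 0.01. With STAG2 it was 5.16 and 5.84 in KO and 7.55 and 5.11 in WT. The 7.55 peak (WT replicate 1) lay 289 bp outside the 5′ gene end, and the other STAG2 peaks 158 to 336 bp inside it. At the listed start, 454 bp inside the gene, STAG2-WT replicate 1 and p130-WT replicate 3 had no peak. Cbx5, the gene of heterochromatin protein HP1α, ends 39 bp from Hnrnpa1, and the gene-end peaks cannot be assigned to either gene.

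Hnrnpa3, a member of the same A/B family, has no other protein-coding gene end within 1000 bp. It was marked at q 0.01 in 12 libraries. Its STAG2 fold was 3.30 and 3.77 in KO and 6.0 and 7.05 in WT, and the second KO peak fell just short of the limit. Its LIN54 fold was 8.60 and 8.89 in KO and 6.67, 4.62 and 4.65 in WT, and its p130 fold was 7.05, 5.94 and 4.22 in KO and 3.76, 6.22 and 6.16 in WT. STAG2 was thus lower in both KO libraries and LIN54 higher in both, while p130 overlapped. The share of all genes marked at q 0.01 moved the same way, by −17.2 points with STAG2 and 10.7 points with LIN54.

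Prpf38a, a component of the precatalytic spliceosome, also lies apart from other gene ends and was marked at q 0.01 in 11 libraries. Its STAG2 fold was 4.35 and 5.29 in KO and 6.20 and 5.41 in WT. Its LIN54 fold was 4.94 and 7.21 in KO and 4.90, 3.46 and 5.99 in WT, and its p130 fold was 7.30, 2.85 and 6.87 in KO and 4.29, 4.51 and 4.65 in WT. Neither LIN54 nor p130 separated the genotypes.

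Srsf10, an SR-related protein that becomes a splicing repressor on dephosphorylation, was a member whose highest folds came from p130. The p130 fold was 8.75, 6.41 and 5.19 in KO and 5.01, 8.91 and 6.92 in WT, resting on 30, 25 and 18 fragments in KO and 19, 23 and 20 in WT. The groups overlapped. The STAG2 fold was 1.88 and 2.23 in KO and 4.88 and 5.34 in WT. LIN54 gave 3.81 and 4.88 in KO and 3.35 and 4.01 in 2 WT libraries, with no gene-end peak in the third. At the listed start, 319 bp from the 5′ gene end, that library (replicate 1) had a fold of 3.67 (q = 0.0237). There STAG2 had a peak in 1 of the 2 WT libraries, so the STAG2 pattern of WT alone held at the gene ends only. The mean rank of Srsf10 among all gene ends was at the 99.6th percentile in p130-KO and at the 99.5th in p130-WT.

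Among the snRNP genes, Snrpd2, which encodes a core Sm protein, carried the strongest LIN54 peaks. The LIN54 fold was 16.9 and 31.5 in KO and 18.2, 17.7 and 10.3 in WT, with overlap. The STAG2 fold was 2.35 and 4.41 in KO and 9.03 and 6.99 in WT, without overlap, and the p130 fold was 3.48, 2.11 and 2.49 in KO and 1.73, 4.05 and 5.32 in WT. Snrpa, the U1 snRNP A protein gene, had a STAG2 fold of 2.79 and 4.38 in KO and 7.28 and 7.49 in WT. Its LIN54 fold was 5.98 and 8.41 in KO and 6.61, 10.7 and 5.02 in WT, and its p130 fold was 1.73, 2.64 and 2.28 in KO and 3.39, 3.47 and 3.30 in WT, none at q 0.01. Qpctl ends 249 bp from Snrpd2 and BC024978 490 bp from Snrpa. Srsf2, the speckle SR protein SC35, had a LIN54 fold of 11.6 and 7.10 in KO and 5.33, 4.17 and 2.19 in WT. Its p130 fold was 3.28, 2.72 and 4.70 in KO and 5.92, 3.63 and 4.45 in WT, and its STAG2 fold was 2.60 and 3.85 in KO and 2.43 and 4.89 in WT.

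**Figure D4:**
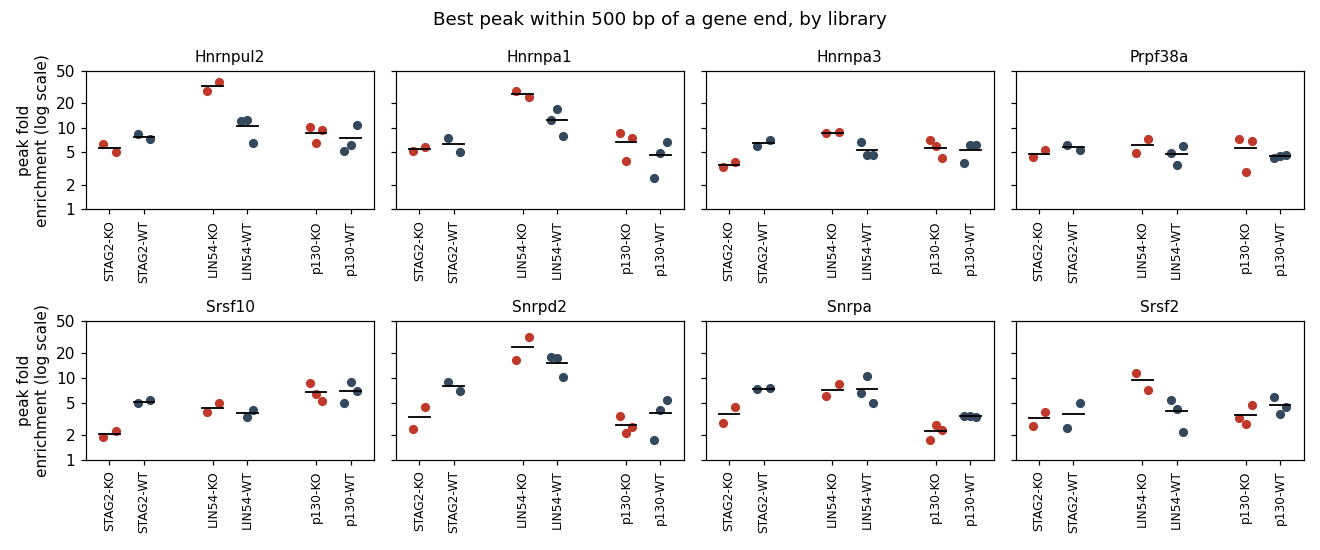
Fold enrichment (log axis) of the best peak within 500 bp of a gene end for 8 members, one point per library with KO in red left of WT in blue, and lines at the mean of the libraries that have a peak (Srsf10 has none in LIN54-WT replicate 1). The LIN54-KO points lie above the LIN54-WT points at Hnrnpul2, Hnrnpa1, Hnrnpa3 and Srsf2, and overlap them at Prpf38a, Srsf10, Snrpd2 and Snrpa.

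Other members ranked high in one group. Hnrnpab, an A/B-type hnRNP, had a LIN54 fold of 8.80 and 10.5 in KO and 3.85, 5.58 and 4.34 in WT. Hnrnpc, which binds uridine tracts, had 5.58 and 6.37 in KO and 8.20, 7.68 and 5.10 in WT. Hnrnpab was thus higher in both LIN54-KO libraries, and Hnrnpc overlapped. Among the U2 snRNP genes Sf3a2 stood out, with a LIN54 fold of 9.39 and 10.1 in KO and 2.98, 5.95 and 2.91 in WT. The other Sf3a and Sf3b genes had LIN54 folds of 1.99 to 5.61 in KO and 2.02 to 4.78 in WT where a peak was present. The 3 U2af genes had 3.12 to 5.35 in KO and 1.70 to 4.41 in WT.

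Some members were marked rarely. The fewest were Hnrnpf in 0 libraries, Hnrnpul1 in 3, Snrpn in 4, Hnrnpa1l2-ps2 in 5, and Hnrnph1, Snrpa1, Srsf1 and Srsf12 in 6 each with the deposited lists. Snrpn encodes an Sm protein of the brain from an imprinted locus. At q 0.01 no peak was found at 13 members (18.8%, against 58.7% of all genes): Hnrnpf, Hnrnpul1, Snrpn, Hnrnpa1l2-ps2, Hnrnph1, Hnrnpl, Hnrnpu, Prpf3, Sf3a1, Snrpb2, Snrpd1, Srsf1 and Srsf12.

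For several of these the gene-table end is not the listed start. In 9 of the 60 members with a listed start (15%), and in 13.5% of 17492 genes, the nearest listed start lay over 500 bp from the 5′ end of the gene in the gene table. Hnrnpul1 was marked in 3 libraries at its ends but in all 15 at its listed start, 1509 bp away, 14 of them at q 0.01. Hnrnpl, a regulator bound to CA repeats, was marked in 8 libraries at its ends and in 15 at its start 2344 bp away, 12 at q 0.01. Hnrnph1, a reader of G tracts, was marked in 6 libraries at its ends and in 14 at its listed starts, and Srsf1 in 6 and 15. Hnrnpf is not one of these 9: it has 4 listed starts, the nearest at the 5′ end of the gene and the farthest 16954 bp from it, and was marked in 0 libraries at its ends and in 15 at the set of its starts. Which members are described at listed starts was decided with their values in view.

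**Figure D5:**
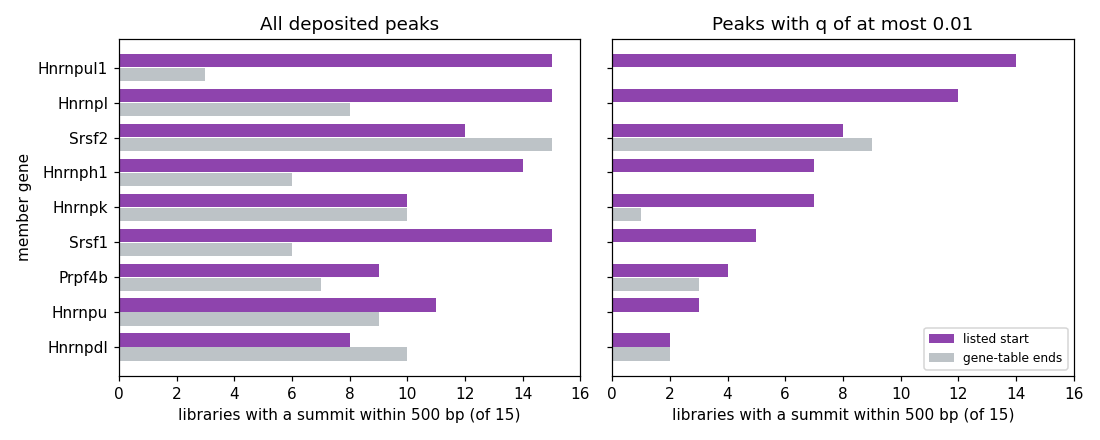
Number of the 15 libraries with a summit within 500 bp of the listed transcription starts (purple) and of the gene-table ends (grey) for the 9 members whose nearest listed start lies over 500 bp from the 5′ gene end, with all deposited peaks (left) and q of at most 0.01 (right). Hnrnpul1 is marked in 15 libraries at the start and 3 at the ends; Srsf2 and Hnrnpdl are marked in fewer libraries at the start with the deposited lists.

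At its listed start Hnrnpul1 carried peaks of all 3 antibodies. The p130 fold was 9.68, 5.30 and 9.16 in KO and 11.2, 10.9 and 13.9 in WT, so every KO library was below every WT library. The LIN54 fold was 28.1 and 34.4 in KO and 32.1, 38.7 and 12.1 in WT, with overlap, and the STAG2 fold was 1.86 and 2.88 in KO and 4.60 and 6.61 in WT. Axl is the nearest other gene, 1741 bp from the start. Hnrnpl at its start had a LIN54 fold of 17.8 and 18.9 in KO and 10.8, 11.9 and 7.23 in WT. Its STAG2 fold was 6.25 and 7.33 in KO and 6.70 and 11.0 in WT, and its p130 fold was 6.12, 3.11 and 4.47 in KO and 3.54, 3.83 and 3.22 in WT. Hnrnpl thus separated the genotypes with LIN54 alone. At listed starts every one of the 60 members had a deposited peak in at least 1 library (background 89.6%), and 6 of 60 (10%) had none at q 0.01 (background 54.9%).

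Neighbouring genes bear on these assignments. Another protein-coding gene had an end within 1000 bp of an end of 33 members. These were marked at q 0.01 in a median of 4 libraries, with 16 of 33 marked in 5 or more. The 36 members without such a neighbour had a median of 1.5 libraries, and 7 of 36 were marked in 5 or more. These counts are at gene-table ends, and the same counts over all genes are not given here. Some listed starts lay over 500 bp from the 5′ end. Hnrnpl, without a neighbour, had 0 libraries at its ends and 12 at its start, Hnrnph1 0 and 7, and Hnrnpk 1 and 7. Srsf1 had 0 and 5, Hnrnpu 0 and 3, and Prpf4b 3 and 4, also without one. With a neighbour, Hnrnpul1 had 0 and 14, Hnrnpdl 2 and 2, and Srsf2 9 and 8. The part of neighbours in the counts was not tested, and Hnrnpa3, Prpf38a and Srsf10 have none.

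Other gene lists were counted in the same way, by members marked at q 0.01 in every library of STAG2-KO and STAG2-WT, then LIN54-KO and LIN54-WT. Against 3, 20, 29 and 11 of the 69 members, other spliceosome genes had 1, 15, 24 and 8 of 53, and other RNA-binding splicing regulators 1, 11, 14 and 4 of 31. Regulators typical of neurons or muscle had 0, 0, 1 and 0 of 16. Cytosolic ribosomal protein genes had 2, 27, 44 and 9 of 97, and proteasome genes 3, 16, 19 and 8 of 51. For p130, the counts in KO and WT were 4 and 2 for the members, 0 and 0 for other spliceosome genes, 2 and 1 for the RNA-binding regulators, 0 and 0 for the neuronal or muscle regulators, 0 and 1 for ribosomal protein genes and 1 and 1 for proteasome genes. Apart from the neuronal or muscle regulators, each of these lists had fewer marked genes in STAG2-KO than in STAG2-WT and more in LIN54-KO than in LIN54-WT, as the members did. For LIN54, every library means 2 in KO and 3 in WT, so the limit is stricter for WT in every list. No test of a difference between lists was made.

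Of 14 urothelial markers, 1 and 3 were marked at q 0.01 in every STAG2-KO and STAG2-WT library, and 2 and 0 in every LIN54-KO and LIN54-WT library. None of the 6 fibroblast, 5 smooth muscle, 5 immune or 4 endothelial markers was marked in every library of any group at q 0.01. With the deposited lists, 0 to 3 of each of these 4 marker lists were, and 1 to 7 of the urothelial markers. A peak at a gene end is not expression and does not name the cells.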

How the data were processed

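CUT&RUN libraries came from about 500000 cells per condition, per the labels. Of 17 labelled samples, 15 have peak lists, and the 2 pMNase controls were left out. The submitters' processing notes name MACS2, Bowtie2 and bcl2fastq, and the build mm10. Versions, settings and any control in the peak calls are not given in the sources used here. The deposited lists give each peak a fold enrichment (a ratio), −log10 p, −log10 q, a summit position and a score. The score was not used. The authors called peaks per library.

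Gene ends came from RefSeq (GRCm38.p6, which is mm10's assembly), and strand and listed starts from the RefSeq promoter table, which matched 60 of 69 members with 81 start windows. An end was given its peak of lowest p within 500 bp. Fold and p together gave the fragment count at the summit and the background coverage, and 100% of about 3000 checked summits per library came out whole to within 0.0002 on the log10 scale. Fragments without molecular identifiers are not independent molecules. The library was the unit, each antibody on its own. Where replicates are not separate animals, their spread is technical. Two-sided Fisher's exact tests were run per gene and adjusted by Benjamini-Hochberg over 21887 genes.

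The members, lists and rules were chosen with earlier results of these data known. Genes were named by rule: the 5 members of best mean percentile per antibody and genotype among those marked in every library, up to 5 marked in one genotype alone per antibody and threshold, up to 8 marked in all 15 libraries, the 5 marked in the fewest, and the SF3A, SF3B and U2AF genes. Of the genes so named, 1 is not reported here. Other names were chosen after their values were seen. Same-numbered libraries of KO and WT deviated together with correlations of −0.00532 to 0.0378, so the numbers were not taken as pairs. Alternatives were q 0.01, the 20000 best peaks, windows of 250 and 1000 bp, batch 3 alone, a replicate block, each library left out and, added after the data were seen, listed starts and further settings at q 0.01. The code was tested on simulated data. Tables were made with pandas 2.3.3 and NumPy 2.4.6 under Python 3.11.15, tests with SciPy 1.17.1 and figures with Matplotlib 3.10.9.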

Additional observations from a re-analysis of the deposited data

Results flagged for a closer look

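The difference between genotypes in the share of splicing factor and hnRNP genes marked at q 0.01 had opposite signs for 2 antibodies. It was 22.9 percentage points (KO minus WT) with LIN54 and −24.6 points with STAG2, so the LIN54 difference exceeded the STAG2 difference by 47.6 points. Both LIN54-KO libraries were above all 3 LIN54-WT libraries and both STAG2-KO libraries were below both STAG2-WT libraries. With the 20000 best peaks of each library the LIN54 genotypes stayed apart, with 37 and 39 members in KO and 28, 28 and 26 in WT, while the STAG2 genotypes overlapped, with 18 and 27 in KO and 26 and 39 in WT. The difference was not tested. Over all protein-coding genes the differences were 10.7 points with LIN54 and −17.2 points with STAG2. With the 20000 best peaks the shares of all genes were 22.8% and 23.1% in LIN54-KO and 16.4%, 19.1% and 13.9% in LIN54-WT. For STAG2 they were 9.21% and 16.6% in KO and 20.6% and 26.1% in WT. Over all genes the genotypes thus stayed apart for both antibodies. Groups of 2 or 3 libraries are too small to single out a library within a group.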

How the results depend on the processing

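With q of at most 0.01 the members marked in every library were 3 in STAG2-KO and 20 in STAG2-WT, 29 in LIN54-KO and 11 in LIN54-WT, and 4 in p130-KO and 2 in p130-WT. With the 20000 best peaks they were 11 in STAG2-KO and 20 in STAG2-WT, 33 in LIN54-KO and 13 in LIN54-WT, and 5 in p130-KO and 6 in p130-WT. With a window of 250 bp they were 19 in STAG2-KO and 24 in STAG2-WT, 24 in LIN54-WT, and 9 in p130-KO and 7 in p130-WT. With 1000 bp they were 55 in STAG2-KO and 57 in STAG2-WT, and 36 in p130-KO and 40 in p130-WT. At q 0.01 with 250 bp, STAG2-KO had 1 and p130-WT had 1. Batch 3 alone, which leaves out p130-WT replicate 1, gave 30 in p130-WT. For STAG2, members of KO alone numbered 0 and of WT alone 10 at q 0.01, 2 of KO alone and 8 of WT alone with the best peaks, 4 of KO alone with 250 bp, and 0 of KO alone and 0 of WT alone with 1000 bp. For LIN54 there were 7 of KO alone and 0 of WT alone at q 0.01, 4 of KO alone and 0 of WT alone with the best peaks, and 0 of WT alone at listed starts. For p130 there were 1 in KO alone with the best peaks, and in WT alone 0 at q 0.01, 2 with 1000 bp and 2 at listed starts. The mean percent of members, KO minus WT, was −24.6 points for STAG2 and 22.9 for LIN54 at q 0.01, and 15.5 for LIN54 with the best peaks. The LIN54 difference beyond that of all genes was 12.3 points at q 0.01 and 8.90 with the best peaks. All other planned settings kept each count within 1.5 times, or each percent within 1 SD, and the cause of the changes was not tested.

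Leaving out each library in turn, the members marked in every library ranged over 44 to 51 in STAG2-KO, 41 to 59 in STAG2-WT, 57 to 59 in LIN54-KO, 44 to 51 in LIN54-WT, 21 to 28 in p130-KO and 20 to 30 in p130-WT. At q 0.01 they ranged over 4 to 20 in STAG2-KO, 28 to 30 in STAG2-WT, 34 to 37 in LIN54-KO, 13 to 14 in LIN54-WT, 4 to 5 in p130-KO and 2 to 4 in p130-WT. KO alone ranged over 2 to 11 for STAG2, 0 to 1 for LIN54 and 0 to 1 for p130, and WT alone over 3 to 10, 1 to 3 and 1 to 3. At q 0.01 KO alone ranged over 0 to 5 for STAG2 and 7 to 14 for LIN54, and WT alone over 10 to 17 for STAG2 and 0 to 0 for LIN54. The mean percent, KO minus WT, with the deposited lists was −3.62 points for STAG2, 3.38 for LIN54 and −5.80 for p130. It ranged over −16.7 to 9.42, 0.725 to 6.52 and −10.9 to 3.62, and its part beyond that of all genes over −6.07 to 17.7, 0.469 to 4.22 and −2.36 to 10.6. The sign for STAG2 and p130 with the deposited lists thus rests on single libraries. With the replicate number as a block the mean differences were −3.62, 0.725 and −5.80 points, and beyond all genes 5.79, 0.469 and 2.85. The block changed no call, and no pairing of libraries was found. Depth limits the absence of a peak: with a lowest background of 1.28 to 2.03 fragments per base, ends with a few fragments are not told from background.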
